A study of Mus musculus with 6 samples.

Results

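The interferon response genes described here are 39 listed mouse genes, from the transcription factors of the pathway through its RNA sensors and antiviral effectors to the genes of class I antigen processing. A gene was read from the probe set that the array's annotation assigns to that gene alone, and where a gene had several, from the probe set with the highest mean signal over all arrays. That gave 37 measured genes of the 39 listed, among 18194 genes that a probe set of 1 symbol names on the array. Isg15 had no probe set of its own, since its probe set is shared with another gene, and Ifi44 had none, so neither has a value here. Rigi is given under its older symbol Ddx58. Ifit1, Irf7 and Psmb8, the markers of the group, were brighter than the background signal of 22.9 on all 6 arrays, and so were 35 of the 37 members. The exceptions were Mx1 and Mx2. The background is the brightest value of 27 control probe sets for bacterial transcripts.

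The samples were microdissected thyroids of mice at postnatal day 15, 3 from Slc26a4 knockout mice (knockout 2, 4 and 6, by the sample numbers in the labels) and 3 from mice heterozygous for Slc26a4 (heterozygous 1, 3 and 5), which served as the controls and which themselves have a single working copy of the gene. Slc26a4 encodes pendrin, an anion exchanger of the apical membrane of thyroid follicular cells, and the comparison asks which transcripts differ when pendrin is absent. RNA was amplified and hybridised to Affymetrix mouse expression arrays, 1 array per sample. The sources used here name neither strain nor sex, do not say which part of Slc26a4 was disrupted, and do not say whether the RNAs are from separate animals. The p-values measure the spread between these arrays alone. That spread may be technical in part.

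Levels are given as linear array signals, which the authors' software had brought to a common trimmed mean, and differences are knockout minus heterozygous on the scale log2(signal + 16.7), which understates the change of dim genes. The number of arrays limits the precision of every value. Array medians ran from 78.1 to 103.6. Slc26a4 read between 2.10 and 15.7 on the knockout arrays and between 4.59 and 12.1 on the heterozygous arrays, under background in both genotypes, so its probe set does not check the genotype labels. Some arrays of both genotypes stood apart from the rest. Knockout 4 carried transcripts of thymocytes, with Dntt at 1779 against 6.09 to 24.5 on the other 5 arrays. Knockout 6 was the brightest array for 27.8% of the 27022 probe sets tested and had Xist at 5442, against 34.3 to 110.2 elsewhere. Heterozygous 1 had Pth, the parathyroid hormone gene, at 165.2, against 2788.5 to 11058 elsewhere. In whole tissue, more RNA per cell and more cells of a type cannot be told apart.

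Interferons are secreted proteins that infected or alarmed cells release. Type I interferon binds a receptor on neighbouring cells, whose kinases activate STAT2, which enters the nucleus with IRF9 in a complex that binds the interferon-stimulated response element (ISRE) in front of their target genes, while interferon gamma acts through a different element, called GAS. The targets include sensors of viral RNA, proteins that block viral translation and replication, enzymes that attach or remove the small modifier ISG15, and the immunoproteasome and peptide transporter that feed class I molecules of the major histocompatibility complex. In the thyroid, class I genes are known to respond to interferon gamma.

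The ISRE is the letter pattern that many of these genes share, and 5 promoters that hold it are printed here because they span the range of behaviours on knockout 4. The windows are the 250 bases before a transcript start in RefSeq's annotation of GRCm38.p6, of which 30 of the 39 listed genes had at least 1. The core GAAANNGAAA, searched on both strands, lay in a window of 10 of these 30 genes (33.3%) and of 3.46% of the 27025 genes in the table. The GAS pattern TTCNNNGAA, which reads the same on both strands, lay in a window of 8 of the 30 (26.7%) and of 8.13% of all genes. The printed windows are Ifit1 (chr19:34640639-34640888, plus strand), Rsad2 (chr12:26456453-26456702, minus strand), Bst2 (chr8:71537473-71537722, minus strand), Gbp2 (chr3:142620413-142620662, plus strand) and B2m (chr2:122147437-122147686, plus strand). Each runs 5′ to 3′ along its gene's strand, and the capitals mark the ISRE core.
Ifit1: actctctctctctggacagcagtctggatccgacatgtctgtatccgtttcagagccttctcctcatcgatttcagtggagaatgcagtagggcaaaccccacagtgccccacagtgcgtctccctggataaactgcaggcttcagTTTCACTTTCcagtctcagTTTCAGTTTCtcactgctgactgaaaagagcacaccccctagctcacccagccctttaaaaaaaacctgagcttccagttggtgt
Rsad2: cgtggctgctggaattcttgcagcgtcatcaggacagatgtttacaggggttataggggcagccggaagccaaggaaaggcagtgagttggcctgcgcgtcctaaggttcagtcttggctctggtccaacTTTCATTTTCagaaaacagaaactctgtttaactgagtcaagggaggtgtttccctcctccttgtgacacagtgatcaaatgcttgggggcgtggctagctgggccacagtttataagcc
Bst2: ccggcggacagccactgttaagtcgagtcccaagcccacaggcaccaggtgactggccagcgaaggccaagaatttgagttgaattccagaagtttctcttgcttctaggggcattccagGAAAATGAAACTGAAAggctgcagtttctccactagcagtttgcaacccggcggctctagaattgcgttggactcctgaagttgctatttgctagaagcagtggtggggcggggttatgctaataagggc
Gbp2: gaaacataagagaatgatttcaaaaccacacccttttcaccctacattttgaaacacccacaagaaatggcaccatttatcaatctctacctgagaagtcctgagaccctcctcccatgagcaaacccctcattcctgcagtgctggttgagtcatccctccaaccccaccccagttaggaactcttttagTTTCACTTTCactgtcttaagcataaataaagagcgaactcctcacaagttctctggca
B2m: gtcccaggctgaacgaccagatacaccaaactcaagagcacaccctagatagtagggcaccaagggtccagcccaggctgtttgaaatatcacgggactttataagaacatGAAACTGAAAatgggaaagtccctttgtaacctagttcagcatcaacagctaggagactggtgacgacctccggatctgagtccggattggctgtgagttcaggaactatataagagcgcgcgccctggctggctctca
Ifit1 had cores at 104 to 95 and at 85 to 76 bases before its start, both on the reverse strand. Bst2 had 1 from 130 to 121 and 1 from 124 to 115, which overlap. Rsad2, Gbp2 and B2m had 1 each, at 120 to 111, 59 to 50 and 139 to 130 bases. The signal on knockout 4, divided by the highest of the other 5 arrays, was 5.80 for Ifit1, 1.44 for Rsad2, 1.33 for Bst2, 0.936 for Gbp2 and 1.04 for B2m, so promoters with the core included both the second-largest ratio of the group and ratios near 1. Ifit3, with a ratio of 1.89, had 2 cores in its window, which is not printed. Irf7, Ifit2 and Oasl2, which were also brightest on knockout 4, had windows without the core, and Mx1, Usp18, Rtp4, Dhx58 and Mx2 are not in the table. A match describes letters in a window and is not a measured binding site.

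No interferon response gene passed the test between genotypes, and what difference there was came largely from knockout 4. The median difference over the 37 genes was 0.11, against -0.0021 over all probe sets tested, and 32 genes read higher and 5 lower in knockouts, against 49.3% of probe sets with a difference above 0. With knockout 4 left out the median was 0.01 and 20 of the 37 read higher, against 51.5% of all probe sets then tested. Without that array the signed difference was lower for 33 of the 37 genes and changed sign for 14. In size it was smaller for 24 and larger for 13, among them Ddx58, Dhx58 and Gbp3, which were then lower in knockouts by more than their difference with all arrays. Leaving out any other array gave a median between 0.09 and 0.18.

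By limma with Benjamini-Hochberg adjustment over the 27022 probe sets, 36 of the 37 genes were tested, and 0 were higher and 0 lower at an adjusted p under 0.05, against 0% of all probe sets in each direction. The adjusted p was 1 for all 36. At an unadjusted p under 0.05, again 0 members were called in either direction, against 0.244% of all probe sets higher and 0.266% lower, and the smallest unadjusted p of a member in the limma fit was 0.067, for Psmb8. Mx2 did not pass the filter on low values, which stood at a signal of 43.5, and Mx1 passed it only with knockout 4 included. All 3 knockout arrays lay above all 3 heterozygous arrays for 2 members, Mx1 and Psmb8, against 1.64% of all probe sets, and below them for 0 members, against 2.04%.

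Knockout 4 was the brightest of the 6 arrays for 23 of the 37 members (62.2%), against 11.6% of all probe sets tested and 12.3% of 12904 genes taken each by its brightest tested probe set. Each of the other arrays was the brightest for between 1 and 5 members. A stricter count, chosen after the values were seen, took genes whose signal on knockout 4 was at least 1.5 times that on any other array. It held 10 of the 37 members, against 0.4% of all probe sets and 0.473% of genes by their brightest probe set. These were Irf7, Dhx58, Ifit1, Ifit2, Ifit3, Oasl2, Mx1, Mx2, Rtp4 and Usp18. No other knockout array reached that ratio for any member, and of the heterozygous arrays heterozygous 1 did for Oas2 alone. Because the 10 were chosen by their signal on knockout 4, leaving that array out had to lower their differences. The median difference of the 10 was 0.39 with all arrays and -0.02 without knockout 4, with single genes between -0.31 and 0.34. For the other 27 members it was 0.07 with all arrays and 0.01 without knockout 4.

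**Figure D1:**
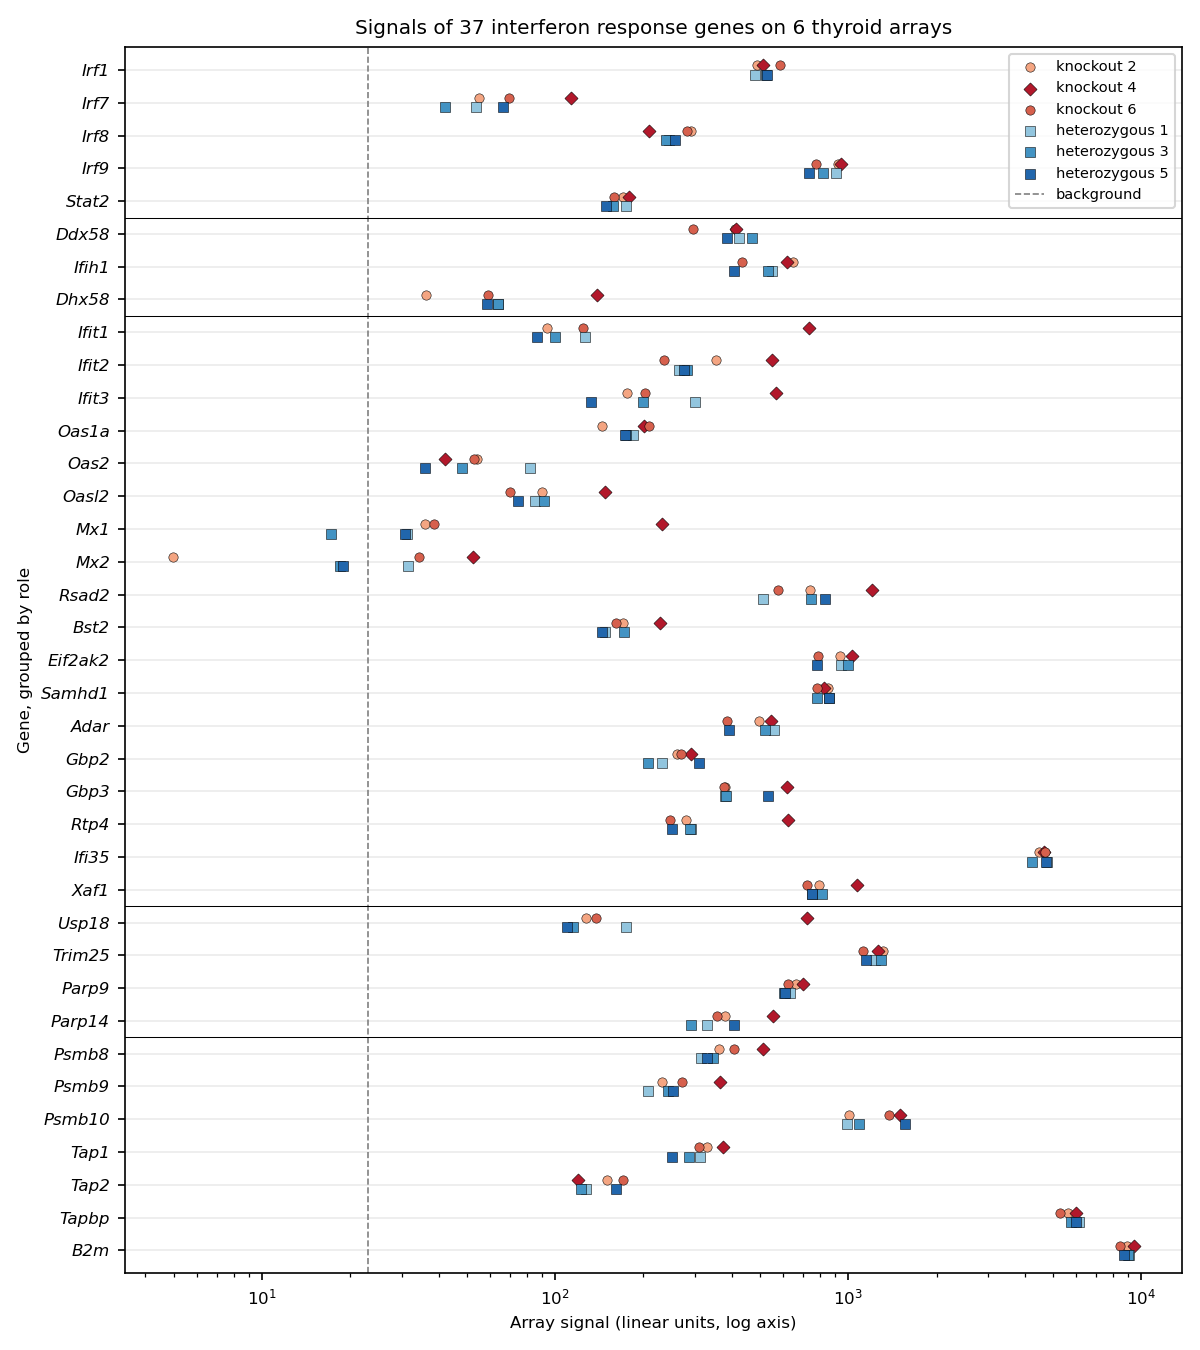
Array signal (linear units, log axis) of the 37 measured interferon response genes, grouped by role, with the 3 knockout arrays drawn above the 3 heterozygous arrays of each gene and the background of 22.9 as a dashed line. Knockout 4 lies to the right of all other arrays for 23 genes and stands far from them for Ifit1, Mx1 and Usp18.

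By the probe sets used, the transcription factors of the pathway were close to equal between genotypes, except for Irf7. Irf7, which drives the second wave of type I interferon and is itself induced by it, read 55.0, 112.9 and 69.5 in knockouts 2, 4 and 6, against 53.8, 42.1 and 66.2 in heterozygotes 1, 3 and 5. The high array was knockout 4, and knockout 2 lay below heterozygous 5. The means were 79.1 ± 30.2 in knockouts and 54.0 ± 12.1 in heterozygotes (SD, n = 3 arrays each), a difference of 0.41 with a 95% interval of -0.25 to 1.06, and of 0.17 without knockout 4.

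On the brightest probe set of each, the other transcription factors showed no such step on knockout 4. Irf9, the DNA-binding partner of the STATs, read 919.6, 940.9 and 773.5 in knockouts and 910.3, 818.1 and 736.6 in heterozygotes. Stat2, its partner in the complex on the ISRE, read 170.6, 178.0 and 158.2 in knockouts and 174.3, 157.6 and 149.0 in heterozygotes. The groups overlapped for both, with differences of 0.09 and 0.07. Irf1, the interferon gamma-induced factor that acts on class I and immunoproteasome promoters, read 488.8, 513.2 and 582.7 in knockouts and 481.4, 525.9 and 528.6 in heterozygotes, a difference of 0.04 with an interval of -0.26 to 0.34. Irf8, a factor of macrophages, dendritic cells and B cells, read 289.6, 208.9 and 280.9 in knockouts against 244.2, 239.4 and 257.2 in heterozygotes. Here knockout 4 was the lowest of the 6 arrays, and the difference was 0.06 with it and 0.20 without it. A dimmer probe set of Irf8 read 67.9, 103.3 and 48.0 in knockouts and 64.2, 70.7 and 86.6 in heterozygotes. There knockout 4 was the brightest array, and the difference was -0.05 with it and -0.28 without it. A dimmer probe set of Stat2 read 109.4, 85.7 and 65.1 in knockouts and 53.6, 75.1 and 59.2 in heterozygotes. Its difference was 0.37 both with and without knockout 4.

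The 3 cytoplasmic RNA sensors did not move together. Dhx58 encodes LGP2, which binds viral RNA and tunes signalling by its relatives. It read 36.3, 138.5 and 59.1 in knockouts, against 64.0, 63.7 and 58.4 in heterozygotes. The brightest array was knockout 4, at 2.16 times the next, while knockout 2 was the dimmest, so that the difference of 0.12 turned to -0.31 without knockout 4. Ddx58, which encodes the sensor RIG-I, read 411.8, 415.4 and 294.6 in knockouts and 422.6, 470.6 and 386.4 in heterozygotes. Its difference of -0.19 was the lowest of the 37 and stood at -0.28 without knockout 4, with an interval of -0.60 to 0.21 over all arrays. Ifih1, which encodes MDA5, the sensor of long double-stranded RNA, read 649.3, 616.0 and 434.6 in knockouts and 548.8, 532.8 and 407.0 in heterozygotes, a difference of 0.18. Knockout 6 was the dimmest knockout array for both genes, and the groups overlapped.

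The 18 antiviral effectors held the largest differences, and 7 of the 10 genes that stood out on knockout 4. Their median difference was 0.14 with 15 of 18 higher, and -0.03 with 7 of 18 higher once knockout 4 was left out. The Ifit genes encode proteins that bind foreign RNA and hold back its translation. Ifit1 read 94.0, 733.2 and 124.1 in knockouts, against 126.4, 99.7 and 87.0 in heterozygotes. Knockouts 2 and 6 lay inside the heterozygous range, and knockout 4 was 5.80 times as bright as the highest of the other 5. The means were 317.1 ± 361 in knockouts and 104.4 ± 20.1 in heterozygotes (SD, n = 3 arrays each), the difference 0.92 with an interval of -0.56 to 2.40, and 0.06 without knockout 4.

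Ifit2 and Ifit3 showed the same array at the top. Ifit2 read 352.5, 551.3 and 235.7 in knockouts and 264.4, 282.1 and 274.3 in heterozygotes. Knockout 6 was the dimmest of the 6 arrays for Ifit2, although knockout 4 was the brightest, and the difference of 0.37 became 0.07 without knockout 4. Ifit3 read 176.5, 566.2 and 203.1 in knockouts and 300.3, 198.9 and 132.8 in heterozygotes. Its difference of 0.43 became -0.07 without knockout 4, and heterozygous 1 was then the brightest array.

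Mx1, a dynamin-like GTPase that traps incoming viruses, had the largest difference of all members. It read 35.9, 231.9 and 38.6 in knockouts, against 31.3, 17.1 and 30.7 in heterozygotes. All knockout arrays lay above all heterozygous arrays, by a narrow margin for knockouts 2 and 6, and heterozygous 3 was under background. The means were 102.1 ± 112 in knockouts and 26.4 ± 8.0 in heterozygotes (SD, n = 3 arrays each). The difference was 1.08 with an interval of -0.24 to 2.40 and an unadjusted p of 0.096 in the limma fit, and 0.34 without knockout 4. With 4 times the pseudocount the difference was 0.67. Mx2, its neighbour and paralog, read 4.95, 52.3 and 34.3 in knockouts and 31.4, 18.4 and 18.9 in heterozygotes, with 3 of the 6 arrays above background. RefSeq annotates both Mx genes of the reference mouse assembly as transcribed pseudogenes.

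The oligoadenylate synthetase family, whose products activate RNase L on double-stranded RNA, split between its members. Oasl2, a synthetase-like protein, read 90.4, 147.5 and 70.2 in knockouts and 85.3, 91.2 and 74.9 in heterozygotes, with a difference of 0.20 that became -0.06 without knockout 4. Oas1a read 144.2, 200.2 and 208.2 in knockouts and 184.1, 174.9 and 173.2 in heterozygotes, and Oas2 read 54.0, 42.2 and 53.0 in knockouts and 82.0, 47.9 and 36.1 in heterozygotes. Knockout 4 was the brightest array for Oasl2, lay just under knockout 6 for Oas1a, and was the dimmest knockout array for Oas2. The differences of Oas1a and Oas2 were 0.03 and -0.07, each inside the spread of its groups.

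Rtp4, an interferon-induced chaperone of receptor trafficking, was another gene set apart by knockout 4. It read 279.7, 621.5 and 246.5 in knockouts, against 290.5, 288.0 and 249.9 in heterozygotes. Without knockout 4 its difference of 0.33 became -0.07. Rsad2, which encodes viperin, an enzyme that makes a chain-terminating nucleotide, read 740.6, 1202 and 574.7 in knockouts and 512.0, 746.4 and 833.4 in heterozygotes. The brightest was again knockout 4, but the heterozygous arrays spanned a wide range too, and the difference of 0.22 became -0.06 without knockout 4. Xaf1, a promoter of apoptosis, read 793.6, 1068 and 720.7 in knockouts and 751.5, 813.8 and 754.6 in heterozygotes, with a difference of 0.13 that became -0.03 without knockout 4.

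Bst2 encodes tetherin, which holds budding virions at the cell surface. It read 170.8, 227.1 and 160.9 in knockouts and 147.8, 171.2 and 144.5 in heterozygotes, a difference of 0.23 with all arrays and 0.10 without knockout 4. Gbp3, a guanylate-binding GTPase induced by interferon gamma, read 378.5, 619.4 and 375.4 in knockouts and 379.6, 383.7 and 531.7 in heterozygotes, and knockouts 2 and 6 were the dimmest arrays. Its relative Gbp2 read 261.3, 290.2 and 267.9 in knockouts and 232.0, 207.1 and 310.2 in heterozygotes. Heterozygous 5 was the brightest array for Gbp2 and the brightest but knockout 4 for Gbp3.

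By the probe sets used, several effectors that tissues make without interferon were nearly level. The differences were 0.01 for Eif2ak2, the kinase that stops translation on double-stranded RNA, -0.02 for Samhd1, which depletes nucleotides, -0.04 for Adar, the adenosine deaminase of double-stranded RNA, and 0.01 for Ifi35. Eif2ak2 read 788.6 to 1027 in knockouts and 782.8 to 998.0 in heterozygotes, and Ifi35 read 4490 to 4679 in knockouts and 4231 to 4757 in heterozygotes. On these probe sets knockout 4 was the brightest array for Eif2ak2 only, at 1.03 times the next. Dimmer probe sets of Adar and Ifi35 were also brightest on knockout 4, with differences of -0.01 and -0.13. Another of Adar differed by 0.27. Another of Ifi35 read 424.8, 389.0 and 394.7 in knockouts, all below the 457.7, 475.0 and 494.2 of the heterozygotes, a difference of -0.23. Further tested probe sets of Eif2ak2 and Samhd1 lay between -0.04 and 0.12.

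**Figure D2:**
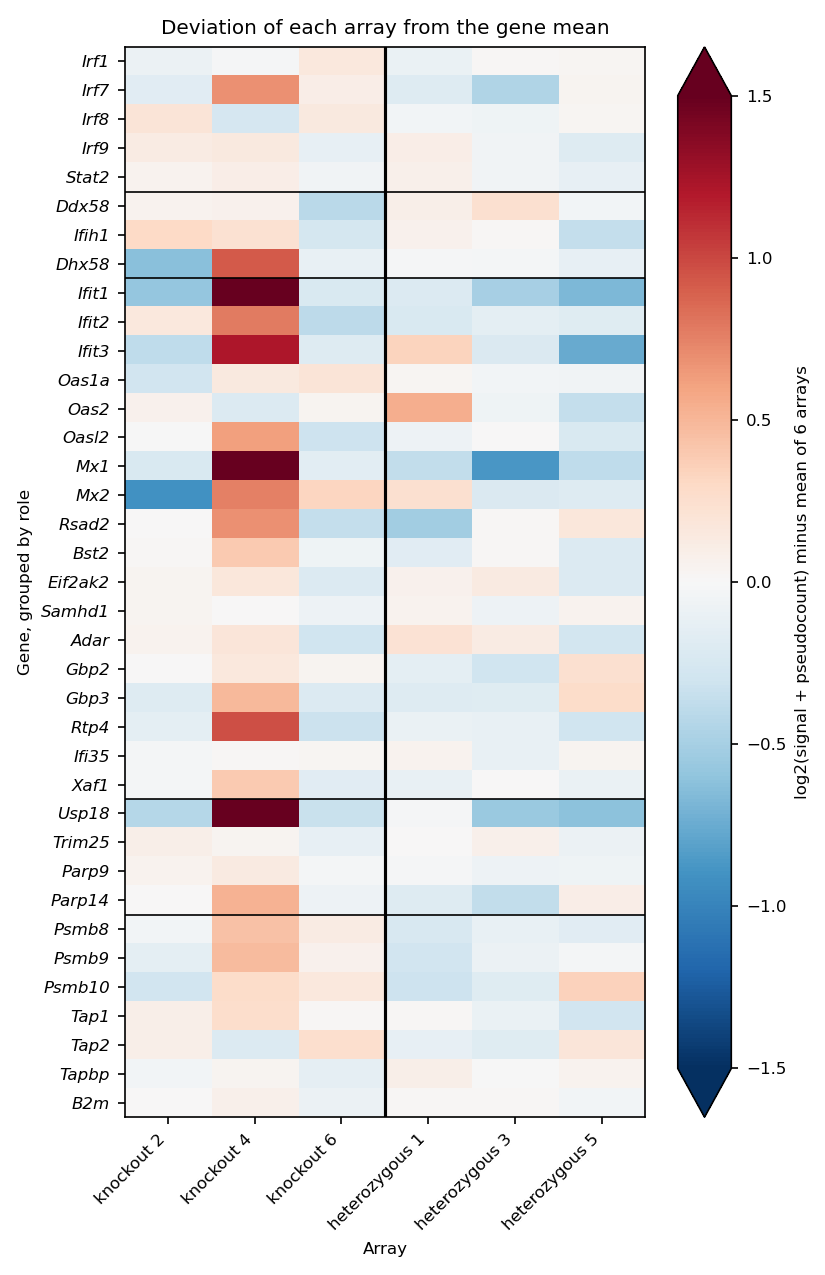
Deviation of each array (columns, knockouts left of heterozygotes) from the gene's mean over 6 arrays, in log2(signal + pseudocount), for the 37 measured genes in rows grouped by role; red is above and blue below the gene mean, and the colours end at 1.5. The knockout 4 column is red for most effectors and near white for Irf1, Samhd1 and Ifi35.

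Among the 4 enzymes of ISG15 and ADP-ribose modification, Usp18 followed the pattern of Ifit1. Usp18 removes ISG15 from proteins and also blocks the type I interferon receptor. It read 126.9, 722.5 and 137.3 in knockouts, against 174.9, 115.3 and 110.1 in heterozygotes. Knockouts 2 and 6 lay within the heterozygous range, and knockout 4 was 4.13 times as bright as the next array. The means were 328.9 ± 341 in knockouts and 133.4 ± 36.0 in heterozygotes (SD, n = 3 arrays each), and the difference of 0.78 became 0.01 without knockout 4. Parp14, an ADP-ribosyltransferase, read 380.9, 551.3 and 356.9 in knockouts and 329.7, 290.3 and 407.2 in heterozygotes, a difference of 0.30 with all arrays and 0.11 without knockout 4. Its relative Parp9 had a difference of 0.10, and Trim25, the ubiquitin ligase that acts on RIG-I, one of 0.00, with a range of 1122 to 1309 in knockouts and 1148 to 1296 in heterozygotes.

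Class I antigen processing was the role in which the median changed least without knockout 4, at 0.10 with and without it, though it ran from 0.04 without heterozygous 3 to 0.26 without knockout 2, and 6 of its 7 genes read higher with all arrays and 4 without knockout 4. None of the 7 was 1.5 times brighter on knockout 4 than elsewhere. Psmb8, the immunoproteasome subunit that replaces a catalytic subunit of the standard proteasome, read 361.9, 513.5 and 408.4 in knockouts, against 313.5, 344.9 and 330.7 in heterozygotes. All knockout arrays lay above all heterozygous arrays. The means were 427.9 ± 77.6 in knockouts and 329.7 ± 15.7 in heterozygotes (SD, n = 3 arrays each), a difference of 0.35 with an interval of -0.03 to 0.72 and 0.21 without knockout 4. Its partner Psmb9 read 231.4, 365.3 and 270.8 in knockouts and 207.9, 241.9 and 252.1 in heterozygotes, with knockout 2 inside the heterozygous range. The difference of Psmb9 was 0.27, and 0.10 without knockout 4. Psmb10, the third inducible subunit, read 1003, 1499 and 1376 in knockouts and 987.8, 1087 and 1562 in heterozygotes, and heterozygous 5 was the brightest array.

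Tap1 and Tap2 form the transporter that moves peptides into the endoplasmic reticulum. Tap1 read 328.6, 372.4 and 310.4 in knockouts and 312.5, 285.0 and 249.6 in heterozygotes, with 1 knockout array just under heterozygous 1. Its difference was 0.24 with an interval of -0.12 to 0.60, and 0.17 without knockout 4. Tap2 went the other way on knockout 4, the dimmest of its 6 arrays, with 150.3, 119.7 and 169.9 in knockouts against 127.7, 122.0 and 161.4 in heterozygotes. Tapbp, the tapasin that bridges transporter and class I molecule, read 5264 to 5960 in knockouts and 5764 to 6123 in heterozygotes, a difference of -0.09. B2m, the light chain of class I, read 8931, 9431 and 8424 in knockouts and 9054, 9011 and 8690 in heterozygotes, and its 95% interval of -0.15 to 0.15 around a difference of 0.0004 was the narrowest of the members.

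**Figure D3:**
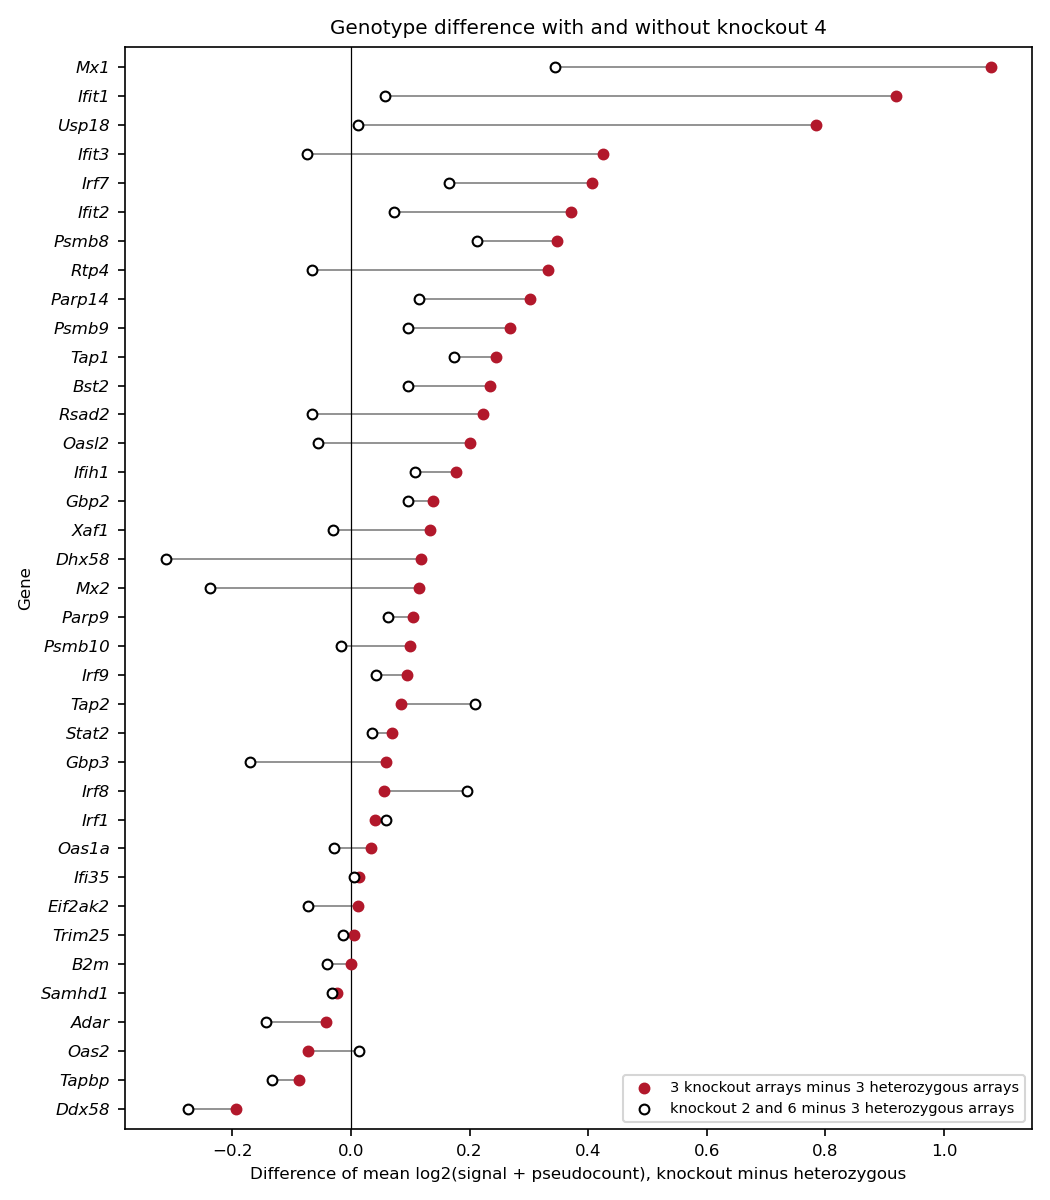
Knockout minus heterozygous difference of each measured gene in log2(signal + pseudocount), with all 6 arrays (filled) and without knockout 4 (open), ordered by the difference with all arrays. Most open points lie left of the filled ones, the largest moves are those of Ifit1, Usp18 and Mx1, and Irf8, Tap2, Irf1 and Oas2 move to the right.

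Further probe sets of the same gene existed for 18 members and for none of Ifit1, Ifit2, Ifit3, Irf7, Mx1, Mx2, Oasl2 and Usp18, so the genes that stood out most have a single reading. Of the 30 further probe sets, 19 were bright enough to be tested. Among these 19, 9 read higher and 10 lower in knockouts with a median of -0.0009, and knockout 4 was the brightest array for 10, against 11.6% of all probe sets tested. On knockout 4, 2 of the 19 were at least 1.5 times brighter than on any other array, 1 of Rtp4 and 1 of Rsad2. That of Rsad2 read 264.7, 438.2 and 274.5 in knockouts and 172.5, 254.9 and 267.7 in heterozygotes, a difference of 0.45 with all arrays and 0.23 without knockout 4. The further probe set of Rtp4 read 56.8, 109.0 and 47.4 in knockouts and 61.0, 57.5 and 54.3 in heterozygotes, so Rtp4 stood out on knockout 4 by both probe sets. The 3 further probe sets of Tap1, none of them tested, had differences of -0.14 to -0.37, against 0.24 for the brightest.

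A wider list of the pathway, 122 genes of which 100 were measured and 84 tested, gave the upstream steps. Of 8 measured interferon ligands none was bright enough to be tested, and 6 were under background on every array. The exceptions were Ifna1 and Ifna5. Ifnb1 and Ifng did not exceed 12.7 on any array. By the probe sets used, the 9 receptors and kinases all read lower in knockouts, against 49.3% of all probe sets with a difference above 0. Their median was -0.08, with differences between -0.29 and -0.03 and no call. Without knockout 6, however, the median was -0.016 and 4 of the 9 read higher. Ifnlr1, the receptor chain for type III interferon, had the lowest of these, with 203.5, 160.6 and 174.6 in knockouts and 234.5, 248.6 and 190.0 in heterozygotes. Knockout 6 was the dimmest array for Ifnar1 and Jak1, and without knockout 6 the difference of Jak1 was 0.08 against -0.15 with all arrays. Further probe sets of Ifnar1 and Il10rb read higher in knockouts, by 0.28 and 0.33, and those of Jak1 by 0.02 to 0.03. Those of Ifnar2 lay between -0.06 and 0.03, and those of Ifngr2, Jak2 and Tyk2 at -0.08, -0.04 and -0.03.

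Of the 6 STATs and brakes, 4 read higher, with a median of 0.07, and 2 without heterozygous 1, with a median of -0.04. Ptpn6, the phosphatase SHP-1, read 299.2, 318.3 and 242.7 in knockouts, all below the 339.1, 326.9 and 325.8 of the heterozygotes. Socs3 and Stat3 differed by 0.09 and 0.07 and Pias1 by -0.08. Of 14 genes of nucleic acid sensing, 10 read higher, with a median of 0.10 (0.03 without knockout 6), and knockout 4 was the brightest for 2. Sting1, the adaptor for cytoplasmic DNA, read 289.4, 260.2 and 301.7 in knockouts against 208.9, 259.4 and 234.5 in heterozygotes. The groups did not overlap, and the difference was 0.26 with all arrays and 0.32 without knockout 4. Zbp1, an interferon-induced sensor of nucleic acid in the Z form, had the pattern of Ifit1, with 57.6, 146.3 and 48.9 in knockouts and 52.0, 46.6 and 66.6 in heterozygotes.

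The 54 further interferon-stimulated genes repeated what the members showed, on the same arrays and so not as separate evidence. Their median was 0.07 with 39 higher, and -0.04 with 23 higher without knockout 4. Knockout 4 was the brightest array for 35 of the 54 and at least 1.5 times the next for 9. Named among these after their values were seen, Isg20, an exonuclease of RNA, read 160.0, 549.9 and 185.0 in knockouts and 137.0, 136.6 and 206.6 in heterozygotes. The chemokine gene Cxcl10 read 100.5, 377.7 and 83.9 in knockouts and 122.1, 147.9 and 238.6 in heterozygotes, with a difference of -0.11 although knockout 4 was the brightest. Nlrc5, the transactivator of class I genes, had the smallest p of the list, with 129.6, 190.6 and 155.6 in knockouts against 81.4, 87.0 and 132.6 in heterozygotes. Its difference was 0.59 with all arrays and 0.47 without knockout 4, with an unadjusted p of 0.037 and an adjusted p of 1 in the limma fit, and knockout 2 lay just under heterozygous 5. Oas1b, Ms4a4c and Irgm2 had differences of 0.63, 0.61 and 0.34, and of 0.46, 0.35 and 0.24 without knockout 4.

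By the probe sets used, the other class I genes were near level, with 5 of 9 higher, a median of 0.05 (-0.03 without knockout 4), and knockout 4 brightest for 1. H2-D1 and H2-K1, class I heavy chains whose probe sets may share sequence with their relatives, had differences of 0.09 and 0.08. Calr, a chaperone, had one of -0.07. The 8 further probe sets of H2-D1 ranged from -0.45 to 0.47. Those of H2-K1, 3 in number, ranged from 0.01 to 0.16, and the 2 of Calr from -0.04 to 0.07. Tapbpl, which edits class I peptides, read 492.3, 428.2 and 377.7 in knockouts and 307.1, 427.6 and 236.6 in heterozygotes. That was a difference of 0.43 both with and without knockout 4, but its 1 further probe set had a difference of -0.04.

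Markers of other cells were also high on knockout 4. Knockout 4 was the brightest array for 15 of 17 measured thymocyte and T cell markers and at least 1.5 times the next for 13. Their summed signal was 662.4, 5638 and 520.2 in knockouts 2, 4 and 6, against 753.3, 749.7 and 687.8 in heterozygotes 1, 3 and 5. Rag1, the recombinase of immature lymphocytes, read 3.36, 395.1 and 16.1 in knockouts and 1.69 to 3.94 in heterozygotes. Cd3e read 32.2, 204.3 and 20.5 in knockouts and 20.4, 21.8 and 43.1 in heterozygotes, and Cd8a 36.2, 102.1 and 30.7 in knockouts and 46.6, 37.3 and 45.6 in heterozygotes. Outside knockout 4, Rag1 was under background on every array. The part of these cells in the interferon values was not tested.

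Markers of other candidate cell types were mixed on that array. The natural killer marker Ncr1 was under background on all arrays, but the summed signal of that list was 412.8, 1035 and 416.0 in knockouts and 375.8, 407.3 and 358.7 in heterozygotes. Most of the excess was Gzma, named after its value was seen, at 707.8 on knockout 4 against 5.28 to 10.5 elsewhere. The 12 macrophage markers summed to 23484, 26656 and 27057 in knockouts and 23686, 24150.3 and 27667 in heterozygotes, with Adgre1 between 526.4 and 603.9 in knockouts and between 486.8 and 613.3 in heterozygotes. Siglech, which marks plasmacytoid dendritic cells, read 94.2, 91.5 and 101.4 in knockouts and 127.2, 89.6 and 98.0 in heterozygotes, and the 7 dendritic cell markers summed to between 2332 and 2516 in knockouts and between 2186 and 2483 in heterozygotes, with Zbtb46 the largest part of each sum. Knockout 4 was at least 1.5 times the next array for 2 of these 7, and Ccr9, named after its value was seen, read 21.7, 167.3 and 40.6 in knockouts and 40.4, 34.2 and 31.4 in heterozygotes. The other was Cd209a, at 12.1 on knockout 4 and under background on all arrays. For the rest of these 7, knockout 4 was not the brightest array. Knockout 4 was the brightest array for 2 of the 12 macrophage markers and for 5 of 7 endothelial markers. The ratio of 3′ to 5′ signal of Gapdh, a measure of RNA integrity, was 1.47, 1.33 and 1.38 in knockouts and 1.39, 1.32 and 1.47 in heterozygotes. For actin the ratio was higher, at 3.13, 2.74 and 2.89 in knockouts and 2.70, 2.70 and 3.21 in heterozygotes.

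**Figure D4:**
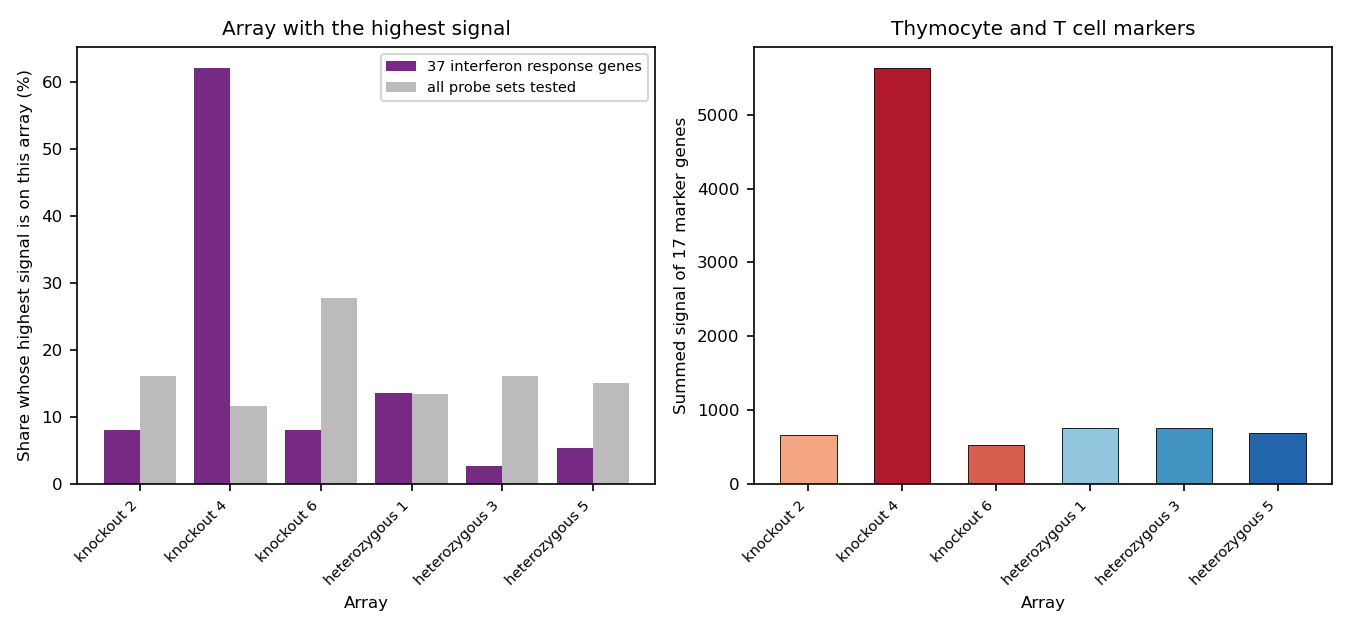
Left, the share (%) of the 37 interferon response genes and of all 27022 probe sets tested that had their highest signal on each array, knockouts left of heterozygotes. Right, the summed linear signal of 17 thymocyte and T cell markers on each array; knockout 4 holds 62.2% of the interferon genes' highest signals and a marker sum of 5638, against at most 753.3 on the other arrays.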

How the data were processed

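The deposited values were linear intensities, 1 per probe set and array for 6 arrays, made with GCOS per the submitters' processing notes, of a version and with settings that the sources used here do not name. Each array's mean after trimming 2% at each end was 500.002, so the arrays had been scaled, and a change shared by most transcripts would be lost. Of 45101 probe sets, 34958 carry 1 symbol in the platform annotation, and 0 symbols were altered by RefSeq gene identifiers. No column of values was left unused (0).

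Signals were taken to log2(signal + 16.7), the addend being the 25th percentile of all values. The 64 control probe sets and those at or under the 40th percentile of mean log2 value were left out, which left 27022. The genotypes were compared by limma 3.58.1 under R 4.3.3 (lmFit, eBayes with an intensity trend, Benjamini-Hochberg adjustment over all 27022, threshold 0.05), and the fit was tested on simulated data. Intervals are 95% and come from that fit. Lists are described by counts and medians. Without knockout 4 the fit has 2 knockout arrays.

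The rule for names took all listed members, up to 4 genes of each further pathway list by smallest unadjusted p, and defining markers. Any other gene was named with its values known. The members and lists were chosen with earlier results of these data known. The alternatives were cyclic loess and quantile normalization, 0.25 and 4 times the pseudocount, no filter and the 60th percentile, eBayes without trend or robust, array weights, the mean of a gene's probe sets, and each array left out. Some listed genes are not reported here.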

Additional observations from a re-analysis of the deposited data

How the results depend on the processing

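No probe set was called, in either direction, under any of the 16 alternatives of the limma fit, and the same holds for the members. The median over the members stayed above 0 under quantile normalization (0.11), cyclic loess (0.13), the other pseudocounts (0.11 and 0.10) and the mean of a gene's probe sets (0.10), and ranged from 0.01 without knockout 4 to 0.18 without knockout 2. Members above 0 numbered 20 without knockout 4 and 31 without heterozygous 1, the ends of the range over arrays left out. Members with all knockout arrays above all heterozygous arrays numbered 1 under quantile normalization, 1 under cyclic loess, 1 with the mean of a gene's probe sets, and 3 to 7 with an array left out. Members with all knockout arrays below numbered 1, 1 and 1 under the same settings, and 0 to 3 with an array left out. The shares of all probe sets under these settings are not given here. The counts can therefore not be read against the 1.64% and 2.04% of the main setting. With fewer arrays, groups separate more easily. The median of the further pathway genes ranged from -0.021 without knockout 4 to 0.064 without knockout 6. Of the 732 alternative values, 671 kept their direction and size within the spread, 19 moved and 42 changed sign. Changing the filter or the eBayes step cannot change a difference, so agreement of differences under those settings was fixed in advance.

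The sign of small differences changed with array weights for Adar (0.019), Irf8 (-0.083) and Tap2 (-0.013), with cyclic loess for B2m (-0.0038), and with the mean of a gene's probe sets for Adar (0.075), Ifi35 (-0.12), Samhd1 (0.012) and Trim25 (-0.050). With an array left out, the sign changed within ranges of -0.19 to 0.096 for Adar, -0.040 to 0.042 for B2m, -0.31 to 0.46 for Dhx58, -0.091 to 0.11 for Eif2ak2, -0.17 to 0.21 for Gbp3, -0.042 to 0.043 for Ifi35, -0.075 to 0.72 for Ifit3, -0.029 to 0.094 for Irf1, -0.024 to 0.20 for Irf8, -0.055 to 0.19 for Oas1a, -0.27 to 0.18 for Oas2, -0.056 to 0.40 for Oasl2, -0.032 to 0.29 for Psmb10, -0.065 to 0.46 for Rsad2, -0.065 to 0.57 for Rtp4, -0.067 to 0.011 for Samhd1, -0.018 to 0.21 for Tap2, -0.041 to 0.069 for Trim25 and -0.031 to 0.25 for Xaf1. Leaving out knockout 4 gave 13 such changes among the tested members, with Mx2 not counted because it was not tested, and leaving out any other array gave 3 to 6. Fewer arrays enter each of these fits, and other causes were not tested.

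No paired analysis was run, because the labels name no pairs of samples. The sample numbers alternate between the genotypes, and the labels do not say whether neighbouring numbers belong together. A pairing by number was not tested. Any variation shared by neighbouring samples would count as spread in the fit used. Amplified RNA, 3 arrays a group, a scaling that removes shared shifts and tissue of unmeasured cell makeup limit all values. The difference of Mx1, whose signals lie near background outside knockout 4, was 0.67 with 4 times the pseudocount.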

Other observations

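Markers of the remaining cell types are given as signals on the same arrays. The 8 thyrocyte markers summed to 40613, 37464 and 34862 in knockouts and 42724, 37658 and 35326 in heterozygotes, with Tg between 11794.5 and 13201 in knockouts and between 12449 and 13805 in heterozygotes. Pth, the parathyroid hormone gene, read 10100.4, 11058 and 2788 in knockouts and 165.2, 10356 and 9702 in heterozygotes, so heterozygous 1 was the low array. The 5 skeletal muscle markers summed to 19816, 9932 and 3424 in knockouts and 18421, 14241 and 11018 in heterozygotes. Ucp1, which marks brown fat, read between 9211 and 11977 in knockouts and between 9816 and 11159 in heterozygotes, and the 4 markers of its list summed to between 15107 and 21148 in knockouts and between 16382 and 19576 in heterozygotes. The 7 B cell markers summed to between 398.2 and 508.3 in knockouts and between 415.8 and 604.3 in heterozygotes. The 6 neutrophil markers summed to 1292, 1729 and 1475 in knockouts and 669.1, 1193 and 2801 in heterozygotes.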
